A study of Mus musculus with 6 samples.

Results

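The 33 genes described here encode the machinery that copies DNA and the enzymes and regulators active around S phase. They were taken by name from a fixed list, one probe set per gene (the probe set with the highest mean over all arrays), and all 33 were found among the 12393 genes with a probe set of their own. The cells were CD4+CD25+ regulatory T cells (Treg), the helper T cell subset that restrains immune responses, separated magnetically from mice of the Balb/c background. There were 3 arrays of cells from MBD2-/- mice, which lack a protein that binds methylated DNA, and 3 arrays of cells from wild-type mice. No treatment, age or sex is given in the sources used here. CD25 is also carried by recently activated conventional T cells, so the separation does not take Treg alone. The submitters called the samples independent, and the p-values below measure the spread between them.

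Before a cell divides, the origin recognition complex and Cdc6 load the ring of Mcm2 to Mcm7 onto DNA in G1 phase, which licenses each origin for a single round of copying. At the G1/S boundary cyclin E and its kinase relieve the block that retinoblastoma-family proteins hold on E2F transcription factors, and E2F then drives many genes of this set. Most circulating T cells rest outside the cycle, while a part of the Treg pool divides in the resting animal, so these transcripts are commonly read as a measure of cycling in such cells. In RNA from a cell mixture, more cells in S phase and more of each transcript per cell cannot be told apart.

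The values are log2 expression levels. Over all probe sets wild-type replicate 3 correlated with the others at 0.7495 to 0.7666 (Pearson), against 0.956 to 0.9966 among the other 5. The replication genes showed the gap too. That array was the lowest of all arrays for 28 of the 33 genes and the highest for 4, and for 16 it lay more than 1 log2 unit below both other wild-type arrays. MBD2-/- replicate 2 had the next lowest correlations. Each result is therefore given with 6 arrays, with 5 arrays (without wild-type replicate 3) and, where it adds something, with 4 arrays (without MBD2-/- replicate 2 as well). T cell and Treg markers were checked first. Cd3e, a subunit of the T cell receptor complex, had 10.54, 9.94 and 10.43 in MBD2-/- cells and 10.90, 10.89 and 10.02 in wild-type cells. Foxp3, the lineage factor of Treg, had 7.98, 6.62 and 8.17 in MBD2-/- cells and 8.83, 8.74 and 6.93 in wild-type cells, so that MBD2-/- replicate 2 and wild-type replicate 3 were the lowest. Of the 8 markers 7 passed the filter on dim probe sets, and Ikzf2, the gene of the Treg factor Helios, did not.

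The promoters show what many of these genes have in common. E2F factors bind letters of the type TTTGGCGC, TTTCGCGC and TTCCCGCC, and these 3 motifs were searched on both strands in the RefSeq windows that run from 250 bases before to 50 after each gene's start (build GRCm38.p6). The windows of 1 chromosome were left out of the search. A searched window was listed for 29 of the 33 genes, and 13 of the 29 held at least 1 match (44.8%). Of all 27025 genes with a searched window, 3.39% did. The first motif was found in 4 of the 29 genes (13.8%, against 0.585% of all), the second in 6 (20.7%, against 0.374%) and the third in 6 (20.7%, against 2.52%). TTTCGCGC and TTTGGCGC can overlap on opposite strands, as they do upstream of Mcm5 and Mcm6. A match describes these letters only. The stretches below show the matches in capitals, on the gene's own strand. Mcm6 and Mcm5 are shown because they hold both TTT motifs, Prim1 and Rfc4 because their values are given in full below, and Rrm1 because it is the partner subunit of Rrm2.

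Mcm6, chr1:128359715-128359845, minus strand: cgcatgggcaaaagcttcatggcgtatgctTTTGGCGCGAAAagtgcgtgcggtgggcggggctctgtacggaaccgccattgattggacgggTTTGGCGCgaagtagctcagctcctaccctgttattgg
Mcm5, chr8:75109326-75109397, plus strand: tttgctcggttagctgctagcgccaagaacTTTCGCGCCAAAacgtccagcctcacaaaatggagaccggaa
Rrm1, chr7:102441598-102441665, plus strand: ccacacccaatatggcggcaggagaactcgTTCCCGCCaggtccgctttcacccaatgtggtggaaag
Prim1, chr10:128015170-128015214, plus strand: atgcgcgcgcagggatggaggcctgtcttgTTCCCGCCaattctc
Rfc4, chr16:23127713-23127750, minus strand: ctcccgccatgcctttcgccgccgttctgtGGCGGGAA

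Relative to the gene's start, the first match began at position -110 in Mcm6, -153 in Mcm5, -67 in Rrm1, -15 in Prim1 and 11 in Rfc4. The 13 tested genes with a match had log2 differences, MBD2-/- minus wild type, between 0.03 and 0.53 with 5 arrays (median 0.25). The 15 tested genes with a window and no match lay between -0.28 and 0.61 (median 0.20). The range of the genes with a match lay within the wider range of the genes without one, and the difference between the 2 sets was not tested.

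The comparison of MBD2-/- with wild-type cells asked whether RNA levels of these genes differ when Mbd2 is missing. As a group the genes lay modestly higher in MBD2-/- cells, and no single gene passed the test with 6 or with 5 arrays. Of the 33 genes, 31 were bright enough to be tested. With 6 arrays, 29 of the 31 had a higher fitted level in MBD2-/- cells, against 63.2% of all 13575 tested probe sets, and the median log2 difference was 0.62, against 0.15 over all probe sets. With 5 arrays, 29 of 31 were again higher, against 39.3% of all probe sets, and the median was 0.23, against -0.06. The exceptions were Orc1 (-0.40) and Pole (-0.01) with 6 arrays, and Rpa1 (-0.28) and Mcm4 (-0.03) with 5. The second tested probe set of Mcm4 had the opposite sign with 5 arrays (0.2).

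In the limma fit of 6 arrays, 0 of 31 genes had an adjusted p under 0.05, where 0.103% of all tested probe sets did. At an unadjusted p under 0.05 there was 1 gene, Prim1, where 4.08% of all probe sets passed and 3.48% passed with a higher level in MBD2-/- cells. Every MBD2-/- array lay above every wild-type array for 8 of the 31 genes, against 10.4% of all probe sets. In the 5-array limma fit, 0 of 31 genes passed, against 1.4% of all (0.67% called higher), and 6 had an unadjusted p under 0.05, all higher in MBD2-/- cells, against 6.95% of all that were higher at this level. In the 5-array fit every MBD2-/- array lay above both wild-type arrays for 10 genes, against 15.6% of all probe sets, and below both for 1 gene, Rpa1, against 31.8% of all. Standard errors of the log2 differences ran from 0.21 to 0.88 with 6 arrays and from 0.09 to 0.23 with 5.

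**Figure D1:**
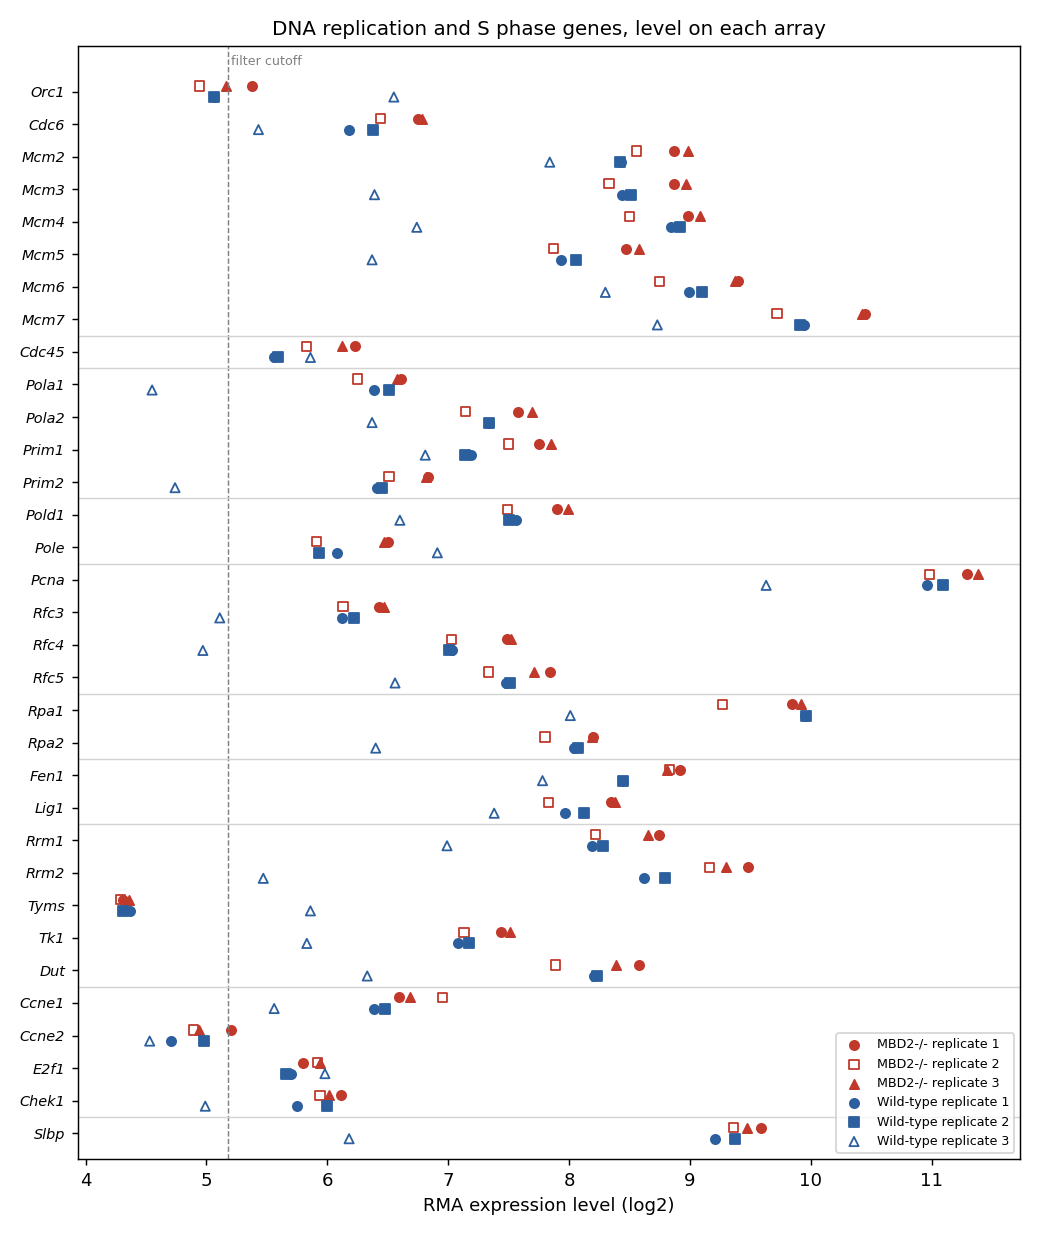
Expression level (log2, x axis) of each of the 33 genes (rows, grouped by role) on each array; red symbols are the 3 MBD2-/- arrays, blue symbols the 3 wild-type arrays, and MBD2-/- replicate 2 and wild-type replicate 3 are drawn open. The open blue triangle lies left of all other symbols for 28 of 33 genes, and the open red square lies below the other MBD2-/- arrays for 30.

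The 3 MBD2-/- arrays did not move as 1 block. Relative to the mean of wild-type replicates 1 and 2, the median deviation over the 31 tested genes was 0.36 in MBD2-/- replicate 1, -0.04 in MBD2-/- replicate 2 and 0.35 in MBD2-/- replicate 3, and -1.06 in wild-type replicate 3. Replicates 1 and 3 of the MBD2-/- group each had 30 of the 31 genes above that mean, while replicate 2 had 12 above and 19 below. Of all tested probe sets, 43.1%, 34.9% and 44.4% lay above it in MBD2-/- replicates 1, 2 and 3, so the count of replicate 2 was near that array's share. Replicates 1 and 3 both exceeded wild-type replicates 1 and 2 for 30 of the 33 genes, against 26.4% of all tested probe sets. Replicate 2 lay below both other MBD2-/- arrays for 30 genes, by a median of 0.36 below their mean, and above both for Ccne1 only. Over all tested probe sets the median deviation was -0.04, -0.14 and -0.03 in MBD2-/- replicates 1, 2 and 3, and -0.74 in wild-type replicate 3.

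With 4 arrays, 19 of the 31 genes passed the threshold, all of them higher in MBD2-/- cells, against 8.37% of all tested probe sets called higher. At an unadjusted p under 0.05 there were 24 genes, all higher, against 14.4% of all, and the fitted level was higher for 30 of 31, against 42.9% of all. Both MBD2-/- arrays lay above both wild-type arrays for 30 genes, against 26.4% of all. This fit was chosen after the arrays' correlations were seen. It rests on 2 pairs of closely alike arrays, with a correlation of 0.9958 within the MBD2-/- pair and 0.9966 within the wild-type pair, and it leaves out the MBD2-/- array in which most of these genes were lowest. The 12 genes that did not pass were Orc1, Mcm4, Pola1, Rfc3, Rfc5, Rpa1, Rpa2, Dut, Ccne1, E2f1, Chek1 and Slbp. The median log2 difference was 0.34, against -0.03 over all probe sets, and the largest was 0.69, for Rrm2.

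**Figure D2:**
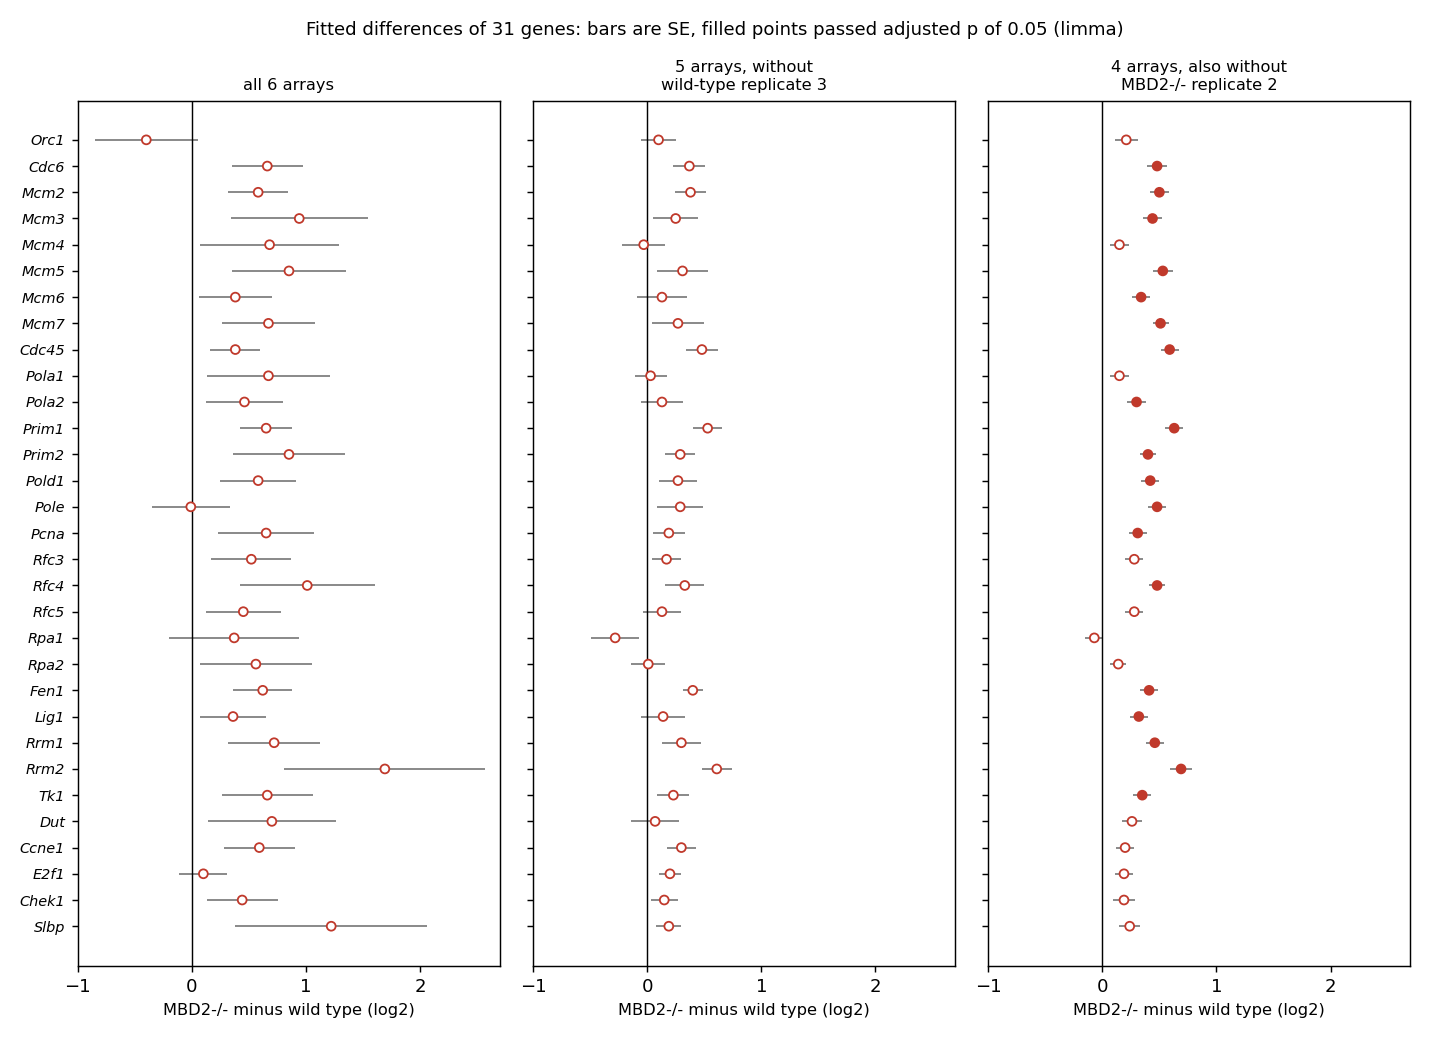
Fitted log2 difference (MBD2-/- minus wild type, x axis) of the 31 tested genes with 6, 5 and 4 arrays; points are differences, bars are standard errors, and filled points have a limma adjusted p under 0.05. No point is filled with 6 or 5 arrays, and 19 are filled with 4.

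Genes of origin licensing were mostly higher in MBD2-/- cells, and none passed with 6 or 5 arrays. Mcm2, a subunit of the replicative helicase ring and the gene of this group with the smallest p, had 8.87, 8.56 and 8.98 in MBD2-/- cells and 8.43, 8.42 and 7.84 in wild-type cells. On this probe set all 3 MBD2-/- arrays lay above all wild-type arrays. The log2 difference of Mcm2 was 0.58 with 6 arrays (SE 0.26, limma adjusted p = 0.829) and 0.38 with 5 (SE 0.14, adjusted p = 0.207). On the second tested probe set of Mcm2 the groups overlapped, with MBD2-/- replicate 2 at 7.88 and wild-type replicate 1 at 7.94. That probe set gave a log2 difference of 1.27 with 6 arrays and 0.45 with 5, with wild-type replicate 3 at 5.42. For Cdc6, which helps to load the ring, all MBD2-/- arrays lay above all wild-type arrays. Its levels were 6.75, 6.44 and 6.78 in MBD2-/- cells and 6.18, 6.38 and 5.43 in wild-type cells. Mcm7, another ring subunit, had 10.45, 9.72 and 10.42 in MBD2-/- cells and 9.94, 9.91 and 8.73 in wild-type cells, so that MBD2-/- replicate 2 fell between the wild-type arrays. Mcm3, Mcm4, Mcm5 and Mcm6 likewise overlapped, with log2 differences of 0.38 to 0.94 with 6 arrays and -0.03 to 0.31 with 5. Orc1, the largest subunit of the origin recognition complex, was near the filter cutoff of 5.18, at 5.38, 4.94 and 5.16 in MBD2-/- cells and 5.06, 5.06 and 6.55 in wild-type cells. Its direction turned with wild-type replicate 3, from -0.40 with 6 arrays to 0.10 with 5. Orc1 passed the filter only through that array: its mean was 5.16 in MBD2-/- cells and 5.06 in wild-type replicates 1 and 2. The filter was kept in the fits without that array, so Orc1 is counted among the genes higher with 5 and with 4 arrays. With 4 arrays, the fit chosen after the correlations were seen, 6 of the 8 licensing genes passed, all except Orc1 and Mcm4. All 6 were higher in MBD2-/- cells, where 8.37% of all tested probe sets were called higher.

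Cdc45, which joins the ring to form the active helicase, had 6.23, 5.83 and 6.12 in MBD2-/- cells and 5.56, 5.59 and 5.86 in wild-type cells. Wild-type replicate 3 was the highest wild-type array here, and the groups overlapped through it alone. Cdc45 differed by 0.38 (log2) with 6 arrays (SE 0.22, limma adjusted p = 0.829) and 0.48 with 5 (SE 0.14, adjusted p = 0.139).

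Primase makes the short RNA primers from which polymerase alpha starts each new strand. Prim1, its catalytic subunit, had 7.75, 7.50 and 7.85 in MBD2-/- cells and 7.19, 7.14 and 6.81 in wild-type cells. On this probe set the groups did not overlap, although wild-type replicate 3 was again the lowest array. The log2 difference of Prim1 was 0.65 with 6 arrays (SE 0.23, unadjusted p = 0.0255, limma adjusted p = 0.829) and 0.53 with 5 (SE 0.13, adjusted p = 0.103). On the second tested probe set of Prim1 the groups overlapped, with MBD2-/- replicate 2 at 7.32 and wild-type replicate 2 at 7.48. That probe set gave a log2 difference of 0.73 with 6 arrays and 0.34 with 5. Prim2, the regulatory subunit, did not overlap, at 6.83, 6.51 and 6.82 in MBD2-/- cells and 6.41, 6.45 and 4.74 in wild-type cells. Of the subunits of polymerase alpha itself, neither passed with 5 arrays: the log2 difference was 0.03 for Pola1 and 0.13 for Pola2, with SE of 0.14 and 0.18.

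Polymerases delta and epsilon copy most of the lagging and the leading strand. Pold1, the catalytic subunit of delta, had 7.90, 7.49 and 7.99 in MBD2-/- cells and 7.56, 7.50 and 6.60 in wild-type cells. MBD2-/- replicate 2 lay among the wild-type arrays, and the difference of 0.27 with 5 arrays did not pass (SE 0.17, limma adjusted p = 0.395). Pole, the catalytic subunit of epsilon, had 6.50, 5.91 and 6.47 in MBD2-/- cells and 6.08, 5.93 and 6.91 in wild-type cells, with a log2 difference of -0.01 with 6 arrays and 0.29 with 5.

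Pcna, the sliding clamp that holds polymerases on DNA, had 11.29, 10.98 and 11.38 in MBD2-/- cells and 10.96, 11.09 and 9.63 in wild-type cells, with overlap. Rfc4, a subunit of the loader that opens the clamp, had 7.49, 7.03 and 7.52 in MBD2-/- cells and 7.03, 7.01 and 4.97 in wild-type cells. MBD2-/- replicate 2 and wild-type replicate 1 were equal to 2 decimals for Rfc4, which leaves the groups barely apart. Rfc4 differed by 1.01 (log2) with 6 arrays (SE 0.59, limma adjusted p = 0.829) and 0.33 with 5 (SE 0.17, adjusted p = 0.313). The loader subunits Rfc3 and Rfc5 overlapped, at 0.52 and 0.45 with 6 arrays and 0.17 and 0.13 with 5.

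RPA coats single-stranded DNA at the fork and in repair, and neither tested subunit passed the test with 6, 5 or 4 arrays. Rpa1, the large subunit, had 9.84, 9.27 and 9.92 in MBD2-/- cells and 9.95, 9.96 and 8.01 in wild-type cells. Without wild-type replicate 3 all MBD2-/- arrays lay below both wild-type arrays, the reverse of most of the set, and its second tested probe set had the same order (-0.23). The log2 difference of Rpa1 was 0.37 with 6 arrays (SE 0.57, limma adjusted p = 0.838) and -0.28 with 5 (SE 0.21, adjusted p = 0.468), so neither value passed. Rpa2, the middle subunit, had 8.20, 7.80 and 8.19 in MBD2-/- cells and 8.04, 8.07 and 6.40 in wild-type cells. Its log2 difference was 0.56 with 6 arrays and 0.01 with 5 (SE 0.15). The second tested probe set of Rpa2 had the opposite sign, at -0.09 with 6 arrays and -0.10 with 5.

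Fen1 trims the flaps between Okazaki fragments and Lig1 seals them. Fen1 had 8.92, 8.83 and 8.81 in MBD2-/- cells and 8.45, 8.45 and 7.78 in wild-type cells. On this probe set it was among the few genes in which MBD2-/- replicate 2 matched the other MBD2-/- arrays. Fen1 differed by 0.62 (log2) with 6 arrays (SE 0.26, limma adjusted p = 0.829) and 0.40 with 5 (SE 0.09, adjusted p = 0.0944). On its second tested probe set MBD2-/- replicate 2 was the lowest of its group, at 7.6 against 7.81 and 7.75. That probe set gave 1.18 with 6 arrays and 0.3 with 5. Lig1 had 8.35, 7.83 and 8.38 in MBD2-/- cells and 7.97, 8.12 and 7.38 in wild-type cells, with overlap through MBD2-/- replicate 2.

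Among the genes of nucleotide supply, Rrm2 had the largest fitted difference of the whole set with 6, 5 and 4 arrays. It encodes the small subunit of ribonucleotide reductase, whose amount limits the making of deoxynucleotides and which is degraded outside S phase. Rrm2 had 9.48, 9.16 and 9.30 in MBD2-/- cells and 8.62, 8.79 and 5.47 in wild-type cells. The groups did not overlap, and wild-type replicate 3 lay more than 3 log2 units below its group. The log2 difference was 1.69 with 6 arrays (SE 0.88, limma adjusted p = 0.829) and 0.61, or 1.53-fold, with 5 (SE 0.13, adjusted p = 0.0821). The 2 further tested probe sets of Rrm2 gave 0.43 and 0.17 with 5 arrays, and the groups overlapped on the probe set with 0.17. Rrm1, the large subunit, had 8.74, 8.22 and 8.65 in MBD2-/- cells and 8.19, 8.28 and 6.99 in wild-type cells, with a log2 difference of 0.30 with 5 arrays (SE 0.17). Tk1, the thymidine kinase of the salvage pathway, and Dut, which removes dUTP, were at 0.23 and 0.07 with 5 arrays. Tyms, the thymidylate synthase, was not tested: it lay at 4.31, 4.29 and 4.36 in MBD2-/- cells and 4.37, 4.31 and 5.86 in wild-type cells, above the cutoff on wild-type replicate 3 alone.

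No regulator of the G1/S step passed the test with 6 or 5 arrays. Ccne1, which encodes cyclin E1, had 6.59, 6.95 and 6.68 in MBD2-/- cells and 6.39, 6.48 and 5.56 in wild-type cells, without overlap. Here MBD2-/- replicate 2 was the highest array. The log2 difference of Ccne1 was 0.59 with 6 arrays (SE 0.31, limma adjusted p = 0.829) and 0.30 with 5 (SE 0.13, adjusted p = 0.259). Ccne2, the gene of the other E cyclin, was under the filter and ranged from 4.89 to 5.20 in MBD2-/- cells and from 4.53 to 4.98 in wild-type cells. E2f1, an activator of S phase genes, had 5.80, 5.92 and 5.94 in MBD2-/- cells and 5.70, 5.66 and 5.98 in wild-type cells. The groups overlapped on this probe set through wild-type replicate 3 alone. For E2f1 a second tested probe set did not overlap, with MBD2-/- replicate 2 lowest of its group at 5.52 and wild-type replicate 3 highest of its group at 5.36. It gave a log2 difference of 0.35 with 6 arrays and 0.4 with 5. Chek1, the kinase that slows replication under stress, was at 0.44 with 6 arrays and 0.15 with 5. None of the 3 tested genes of this group passed with 4 arrays. Slbp, which binds histone mRNA and is needed for histone supply in S phase, had 9.59, 9.36 and 9.47 in MBD2-/- cells and 9.21, 9.37 and 6.18 in wild-type cells. Its log2 difference of 1.22 with 6 arrays (SE 0.84, limma adjusted p = 0.829) came down to 0.19 with 5 (SE 0.11, adjusted p = 0.384).

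**Figure D3:**
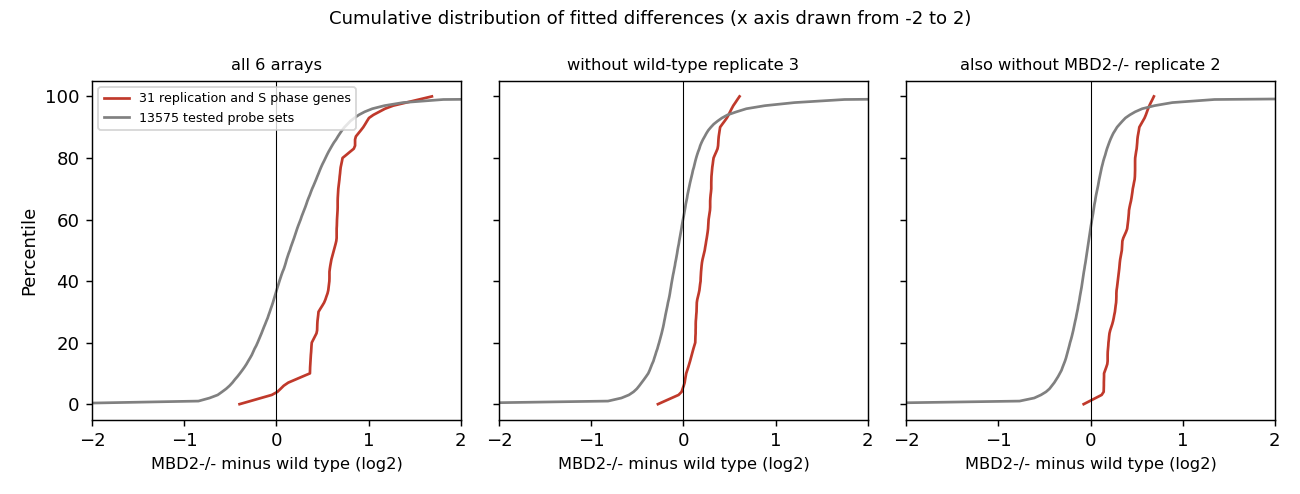
Percentile (y axis) against fitted log2 difference (MBD2-/- minus wild type, x axis) for the 31 tested genes in red and all 13575 tested probe sets in grey, with 6, 5 and 4 arrays. The red medians are 0.62, 0.23 and 0.34, right of the grey medians of 0.15, -0.06 and -0.03.

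Further genes of the pathway were described from lists written from general knowledge. Of 46 other replication genes, 37 were tested, and 35 were higher in MBD2-/- cells with 6 arrays (median 0.61) and 27 with 5 (median 0.12). Of all tested probe sets 63.2% and 39.3% were higher. None passed in the limma fit of 6 or 5 arrays, where 4 and 8 had an unadjusted p under 0.05, against 4.08% and 21.6% of all probe sets. Of these genes 4 and 7 were higher in MBD2-/- cells, against 3.48% and 6.95% of all that were higher at this level. The 2 with the smallest p without wild-type replicate 3 were E2f8, an E2F family repressor, and Dna2, a helicase and nuclease. E2f8 had 6.97, 6.69 and 6.71 in MBD2-/- cells and 6.0, 6.07 and 4.98 in wild-type cells, a log2 difference of 0.75 with 5 arrays (SE 0.12, limma adjusted p = 0.0518). Dna2 had 6.60, 6.62 and 6.48 in MBD2-/- cells and 5.76, 5.98 and 4.93 in wild-type cells, at 0.70 (SE 0.11, adjusted p = 0.0518). In both, the MBD2-/- arrays lay close together and above all wild-type arrays, replicate 2 included.

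A further list held the retinoblastoma family, the inhibitors of cyclin-dependent kinases and the E2F factors E2f4 and E2f5, and 10 of its 12 genes were tested. E2f4 and E2f5 are included in the counts below, at -0.03 and -0.40 with 5 arrays. With 6 arrays 0 passed the limma test and 0 had an unadjusted p under 0.05, against 0.103% and 4.08% of all probe sets. With 5 arrays 3 had an unadjusted p under 0.05, against 21.6% of all, 1 of them higher and 2 lower in MBD2-/- cells. The list did not move one way: 3 of the 10 genes were higher with 5 arrays and 7 lower, with a median of -0.07. The gene that passed with 5 arrays, where 1.4% of all probe sets did, was Rbl2, which encodes p130, the pocket protein that represses E2F targets in resting cells. Rbl2 had 8.19, 8.14 and 8.10 in MBD2-/- cells and 9.07, 9.05 and 6.72 in wild-type cells. Without wild-type replicate 3, it fell by 0.91 on the log2 scale in MBD2-/- cells (SE 0.09, limma adjusted p = 0.0164), and the 3 MBD2-/- arrays lay close together. With that array the log2 difference was -0.13 (adjusted p = 0.948). The other genes at an unadjusted p under 0.05 with 5 arrays, named after their values were seen, were inhibitors that went opposite ways. Cdkn1a, which encodes p21, had 7.02, 7.31 and 6.47 in MBD2-/- cells and 6.16, 6.24 and 8.31 in wild-type cells, at 0.73 with 5 arrays (SE 0.24, limma adjusted p = 0.173) and 0.03 with 6. Cdkn1b, which encodes the inhibitor p27, had 8.19, 8.45 and 8.18 in MBD2-/- cells and 8.73, 8.86 and 7.10 in wild-type cells, at -0.52 with 5 arrays (SE 0.12, adjusted p = 0.0962) and 0.04 with 6. All MBD2-/- arrays lay above wild-type replicates 1 and 2 for Cdkn1a and below both for Cdkn1b, while wild-type replicate 3 was the highest array for Cdkn1a and the lowest for Cdkn1b.

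All 15 tested genes of the G2 phase and mitosis were higher in MBD2-/- cells with 6 and with 5 arrays, against 63.2% and 39.3% of all probe sets, with medians of 0.61 and 0.39. In the limma fits 0 of 15 passed, and 2 and 7 had an unadjusted p under 0.05 with a higher level, against 3.48% and 6.95% of all. Mki67, the gene of the cycling marker Ki-67, had 9.07, 8.85 and 9.07 in MBD2-/- cells and 8.04, 8.39 and 5.81 in wild-type cells (5-array log2 difference 0.78, SE 0.14, adjusted p = 0.0611). Bub1b, a mitotic checkpoint kinase, had 6.73, 6.50 and 6.58 in MBD2-/- cells and 6.07, 6.21 and 5.71 in wild-type cells (0.46, SE 0.11, adjusted p = 0.101).

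Levels of markers of other cell types differed between the same arrays, on a scale that has no zero. Neutrophil markers were higher in every MBD2-/- array than in every wild-type array for 7 of the 7 measured genes, as were 10.4% of all probe sets. Their summed linear level was 23465 to 34295 in MBD2-/- cells and 470 to 1396 in wild-type cells. The 4 markers of granulocyte precursors (Mpo, Elane, Prtn3 and Ctsg), which mark dividing cells of the bone marrow, also did not overlap, with a summed level of 317 to 733 in MBD2-/- cells and 135 to 188 in wild-type cells. Their mean log2 level was 7.37, 6.26 and 6.76 in MBD2-/- replicates 1, 2 and 3. Replicate 2 was the lowest MBD2-/- array here, as for most replication genes. It was also the lowest for the T cell and Treg markers, whose mean log2 level was 8.88, 8.14 and 8.94 in these replicates. Monocyte, macrophage and dendritic cell markers did not overlap for 5 of 7 genes, with summed levels of 2582 to 5700 in MBD2-/- cells and 282 to 446 in wild-type cells. B cell markers (5 measured, 3 without overlap) and plasma cell markers (4 measured, 2 without overlap) had summed levels of 1004 to 1658 and 10465 to 20875 in MBD2-/- cells, against 342 to 711 and 1521 to 7397 in wild-type cells. Markers of T cells and Treg had summed levels of 4647 to 7426 in MBD2-/- cells and 5094 to 10178 in wild-type cells. None of the 8 was without overlap over 6 arrays, but without wild-type replicate 3 all 7 tested T cell markers were lower in every MBD2-/- array than in both wild-type arrays, as were 31.8% of all probe sets. With those 5 arrays the monocyte, macrophage and dendritic cell markers were higher without overlap for 7 of 7 genes, against 15.6% of all. MBD2-/- replicate 2 had the lowest T cell level of its group and the highest neutrophil, monocyte, B cell and plasma cell levels. The part of these other cells in the levels of the replication genes was not tested.

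**Figure D4:**
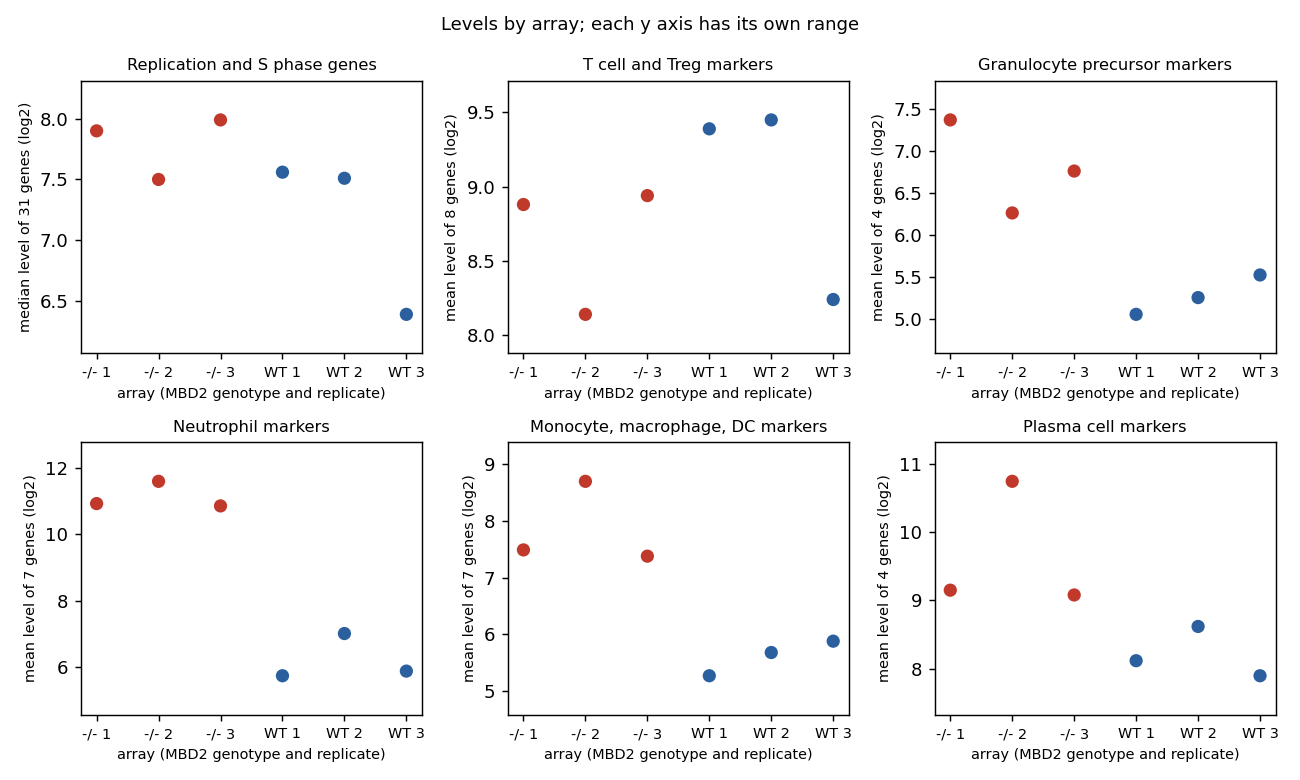
Level (log2, y axis, own range in each panel) on each of the 6 arrays (x axis, MBD2-/- in red, wild type in blue) for the median of the 31 replication and S phase genes and the mean of 5 marker lists. For the replication genes MBD2-/- replicates 1 and 3 are highest (7.90 and 7.99) and wild-type replicate 3 lowest (6.39), while neutrophil markers separate the groups on every array.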

How the data were processed

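RNA of 6 samples was measured on 6 one-colour arrays. The authors deposited log2 values made with RMA, per the submitters' processing notes; neither the software version nor which arrays were normalized jointly is stated there. Of 22690 probe sets, 64 were controls; of the rest 20380 had 1 gene symbol in the platform annotation, 691 several and 1555 none, and 20351 symbols were found by gene ID in the RefSeq table of GRCm38.p6. The 40% with the lowest mean were left out (cutoff 5.18), which kept 13575. Groups were compared with limma 3.58.1 in R 4.3.3 (lmFit, eBayes, Benjamini-Hochberg over all tested probe sets, threshold 0.05), and the fit was tested on simulated data. The members, gene lists and marker lists were chosen with earlier results of these data known. In each role the genes with the smallest p with 6 and with 5 arrays are given in full, and others were added after their values were seen. Of further lists, genes past the threshold or else the 2 with the smallest p without wild-type replicate 3 are named. Alternatives covered the filter, variance model, array weights, normalization, replicate block, probe set choice, threshold and left-out arrays. Promoter sequences are RefSeq's (GRCm38.p6). Figures were drawn with matplotlib 3.10.9.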

Additional observations from a re-analysis of the deposited data

How the results depend on the processing

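The 14 probe sets called among all those tested became 8 with no filter, 2323 with limma's array weights (971 higher and 1352 lower in MBD2-/- cells) and 2537 without both MBD2-/- replicate 2 and wild-type replicate 3, and ran from 0 to 190 when 1 array was left out. It was 0 without MBD2-/- replicate 1 or 2, 3 without MBD2-/- replicate 3 and 190 without wild-type replicate 3. The count of replication and S phase genes called was 0 with each array left out in turn, 13 with array weights and 19 without both arrays, a fit added after seeing the data. The array weights were 8.24, 0.585 and 3.65 for MBD2-/- replicates 1, 2 and 3 and 0.448, 4.39 and 0.0289 for wild-type replicates 1, 2 and 3, so wild-type replicate 1 weighed less than MBD2-/- replicate 2. The median log2 difference of 0.62 stayed above 0 under every alternative run, from 0.23 to 0.76 with 1 array left out, and was 0.28 with array weights. For the other replication genes it ran from 0.12 to 0.89 with 1 array left out. Rpa1 turned direction with array weights (-0.11), after renewed quantile normalization (-0.00), without wild-type replicate 3 (-0.28) and without both arrays (-0.07). With 1 array left out it ran from -0.28 to 0.69. Correlations between the deviations of same-numbered samples were 0.15, -0.09 and -0.14, and those of differently numbered samples ran from -0.21 to 0.21. With 3 arrays per group and wild-type replicate 3 far from its group, these values cannot show whether samples were paired by number. With the replicate number as a block 10 probe sets and 0 of the replication and S phase genes were called. The causes of these changes were not tested.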

Other observations

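Probe sets of the same gene disagreed on wild-type replicate 3. For the 16 replication and S phase genes with a second tested probe set, the spread between probe sets in the deviation from the mean of wild-type replicates 1 and 2 had a median of 0.11, 0.14 and 0.14 log2 units in MBD2-/- replicates 1, 2 and 3, and of 1.16 in wild-type replicate 3. It exceeded 1 log2 unit for 10 of the 16 genes on that array, and was widest for Rrm2, at 2.95.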
